A study of Arabidopsis thaliana with 39 samples.

Results

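Unstressed 15-day-old Arabidopsis thaliana Col-0 seedlings were sequenced as controls of 2 experiments of this small RNA series, and these 2 sets of controls are compared here. The H0 libraries were the controls of the heat experiment, and the C libraries were the controls shared by the NaCl, copper, cadmium and sulfur experiments. The members were taken by label, as every library of the groups H0 (3) and C (3), 6 of the 39 libraries in 13 groups. Both groups were wild type, neither had received a stress, and each library came from 100 mg of seedlings of 1 biological replicate. For the salt, metal and sulfur experiments the sources give growth at 22 °C with 16 h of light and 8 h of dark on ½ Murashige and Skoog (MS) plates with 0.8% agar, and the stresses lasted 24 h in liquid ½ MS from day 14. Heat was given by moving plates of 14-day-old seedlings to 37 °C for 0.5 or 6 h. How the control seedlings of either experiment were handled during that time is not given in the sources used here, and neither are dates of growth, extraction or sequencing. Culture and batch therefore change together with the group and cannot be told apart in any difference below.

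Plant miRNAs are cut as a duplex from a hairpin precursor, and one strand is loaded into an Argonaute protein, where it guides the slicing of mRNAs that pair with it. The loaded strand is the guide and its partner is the star. Several families are known for following the mineral status of the plant. miR399 accumulates when phosphate is short and acts on PHO2, a ubiquitin-conjugating enzyme of phosphate homeostasis, and miR395 does so when sulfate is short and acts on ATP sulfurylases and a sulfate transporter. miR397, miR398, miR408 and miR857 accumulate when copper is short and act on mRNAs of copper proteins such as laccases, plantacyanin and superoxide dismutases. Others follow development, such as miR156 on SPL transcription factors and miR169 on NF-YA subunits.

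The largest called differences between the unstressed seedlings of the 2 sets were in miR399 among the higher sequences, and in miR397, miR857 and the miR169b sequences among the lower. The miR399 strands were higher in H0 than in C, while miR397a, miR397b and miR857 were lower in H0, and so were 4 sequences of the miR169 family, by less for miR169a-5p and miR169h,i,j,k,l,m,n. The sequences that carry these differences are printed 5′ to 3′ in the DNA letters of the deposited tables, with bases 2 to 8, which are central to target pairing, in capitals.
miR399b,c-3p: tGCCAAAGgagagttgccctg
miR399d: tGCCAAAGgagatttgccccg
miR399f: tGCCAAAGgagatttgcccgg
miR399c-5p: gGGCATCTttctattggcagg
miR397a: tCATTGAGtgcagcgttgatg
miR397b: tCATTGAGtgcatcgttgatg
miR857: tTTTGTATgttgaaggtgtat
miR169b-5p,c: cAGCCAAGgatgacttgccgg
miR169a-5p: cAGCCAAGgatgacttgccga
miR169h,i,j,k,l,m,n: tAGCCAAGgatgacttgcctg
miR169b-3p: gGCAAGTTgtccttcggctaca

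Exact matches of these sequences in the TAIR10.1 genome all lay at annotated mature miRNAs. miR399f lies at chr2:14445084-14445104 (+) in MIR399f, and miR399d lies at chr2:14442988-14443008 (−) in MIR399d, with 2096 bases between the starts. miR399b,c-3p has 2 loci, chr1:23345387-23345407 (−) in MIR399b and chr5:24962568-24962588 (+) in MIR399c, and its partner strand miR399c-5p lies at chr5:24962497-24962517. miR397b (chr4:7878730-7878750, −) and miR857 (chr4:7878198-7878218, −) start 532 bases apart in MIR397b and MIR857, while miR397a lies at chr4:2625960-2625980 (+) in MIR397a, antisense to ENT6. miR169b-5p,c is made from MIR169b at chr5:8527511-8527531 (+) and MIR169c at chr5:15870868-15870888 (−), and reads cannot be assigned to one of them. miR399d is nearly identical to miR399a, miR399e and miR399f, miR397a to miR397b, and miR169a-5p to miR169b-5p,c, so that reads may be shared between them through the trimming used in counting.

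The 6 libraries held 10572828 to 10728612 reads, and 3912553 to 4920920 of them per library were counted as miRNAs. miRNA reads made up 44.8, 50.1 and 42.7% of the genome-mapped reads in H0 and 41.2, 36.9 and 40.3% in C, a difference of 6.39 percentage points with no overlap. An exact permutation test, two-sided, gave p = 0.1, the smallest that 3 against 3 libraries allow, and 0.25 after adjustment over 10 library measures. Among the RNA quality measures, the 28S to 18S ratio did not overlap either. It was 2.1, 2.2 and 2.1 in H0 and 1.6, 1.8 and 1.8 in C, again at an exact p of 0.1. The absorbance ratio at 260 and 280 nm averaged 2.03 ± 0.0153 in H0 and 2.09 ± 0.02 in C (SD, n = 3 each), also without overlap and at an exact p of 0.1. The percent of reads mapped was 98.1, 93.0 and 97.9 in H0 and 98.2, 98.8 and 99.0 in C, likewise at an exact p of 0.1, while the RNA integrity numbers of 8.0 to 8.6 in H0 overlapped those of 8.4 to 8.9 in C. After adjustment the permutation test gave p = 0.25 for the 28S to 18S ratio, the absorbance ratio and the percent mapped. For the RNA integrity number it gave an adjusted p of 0.4. The part of these measures in the differences below was not tested.

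H0 replicate 2 stood apart from the other H0 libraries. Over the 163 sequences tested, its log2 levels differed from those of H0 replicates 1 and 3 by a median of 0.53 and 0.55, while those of H0 replicates 1 and 3 differed by 0.23 and those of C libraries by 0.23 to 0.26. The coefficient of variation that edgeR estimated for replicates was 45.2% in H0 and 20.1% in C. miR8183 was at 4.07, 380 and 4.92 counts per 1000000 miRNA reads (CPM) in H0 replicates 1, 2 and 3 and at 8.14, 12.3 and 9.19 CPM in C, and it was singled out after its values were seen. Its log2 fold change of 4.16 ± 1.84 (SE) did not pass the test (edgeR, adjusted p = 0.158), and without H0 replicate 2 the direction turned to −0.99 (edgeR, adjusted p = 0.0382). miR851-3p was likewise high in this library alone (1.5, 117 and 2.01 CPM in H0, and 3.26, 3.07 and 2.83 CPM in C), with a fold change of 4.14 (edgeR, adjusted p = 0.153) and of −0.66 without it. miR775 was low there, with 335, 46.3 and 380 CPM in H0 and 437, 475 and 320 CPM in C. Relative to their own groups, replicate 2 of H0.5 and of H6 deviated in the same way (Pearson r of 0.64 and 0.74 with the deviations of H0 replicate 2, over 163 sequences of libraries from 1 experiment). The traits were not limited to replicate 2, since H0.5 replicate 3 had 271 CPM of miR8183 and 25.4 CPM of miR775, against 239 and 21.1 CPM in H0.5 replicate 2. The results below were therefore computed with and without H0 replicate 2.

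Of 353 mature sequences, 290 had reads in these libraries and 163 had enough for a test. edgeR's quasi-likelihood test, with Benjamini-Hochberg adjustment over all 163, called 27 sequences (16.6%) at an adjusted p under 0.05, 16 higher (9.82%) and 11 lower (6.75%) in H0. The CPM of H0 and C did not overlap for 26 of the 27, against 71 of all 163 tested (43.6%). Most called sequences were scarce: 21 of them averaged under 100 CPM, and together they made up 0.282% of the miRNA reads of H0 and 0.44% of those of C. Without H0 replicate 2, 48 sequences (28.9% of those tested) were called, 28 higher and 20 lower, with all 27 among them. When that library was kept and a C library was left out, few calls were left, with 0 higher and 5 lower without C replicate 1, 0 and 2 without C replicate 2, and 0 and 1 without C replicate 3. At an unadjusted p under 0.05 edgeR found 21, 19 and 25 higher sequences in those 3 fits. When H0 replicate 2 and 1 C library were both left out, 17 to 22 higher and 18 to 23 lower sequences were called, and 24 to 26 of the 27 were among them. Without H0 replicate 1 there were 14 higher and 6 lower sequences, and without H0 replicate 3 there were 11 and 5. The fold changes below are log2 values of H0 over C from this fit, after scaling by trimmed means (TMM), while CPM is relative to all miRNA reads of a library. Scaling by total miRNA reads moved the median log2 fold change by −0.23, and 14 higher and 19 lower sequences were then called.

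**Figure D1:**
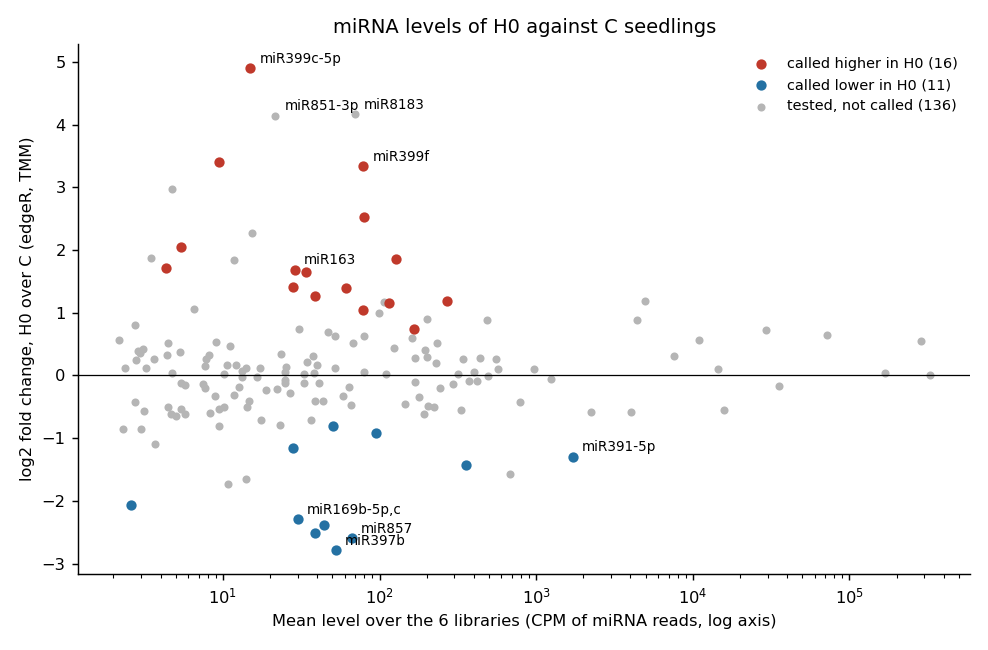
Each point is 1 of the 163 tested sequences, with its mean level over the 6 libraries (CPM, log axis) against its log2 fold change of H0 over C. The 16 sequences called higher (red) reach 4.90 for miR399c-5p and the 11 called lower (blue) reach −2.78 for miR397b, while miR8183 and miR851-3p lie high without passing the test.

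The phosphate-responsive list (miR399, miR827, miR2111, miR778) had 8 tested members, and 4 of them were called higher in H0, against 9.82% of all tested sequences. All 8 had fold changes above 0, with a median of 2.75 against 0.06 for all tested sequences. miR399f was at 46.9, 290 and 82.1 CPM in H0 and at 19.1, 19.7 and 14.4 CPM in C. Its groups did not overlap, and H0 replicate 2 was the highest library. The difference was 3.34 ± 0.80 (SE; edgeR, adjusted p = 0.0415), and it was 2.00 without that replicate (adjusted p = 0.00228). miR399b,c-3p, the guide strand of its 2 hairpins, was at 65.1, 249 and 76.3 CPM in H0 and at 28.1, 34.0 and 24.0 CPM in C, a difference of 2.52 ± 0.65 (edgeR, adjusted p = 0.048), and of 1.44 without H0 replicate 2 (adjusted p = 0.00174). The star strand miR399c-5p was at 10.5, 62.0 and 13.7 CPM in H0 and at 1.63, 1.79 and 0.236 CPM in C, which is 1 to 7 reads per C library. It had the largest difference of all tested sequences, 4.90 ± 1.06 (edgeR, adjusted p = 0.034), and 3.43 without H0 replicate 2. Of these sequences only miR399c-5p is particular to the MIR399c hairpin, since miR399b,c-3p is also made from MIR399b. miR399d, at 4.07, 34.7 and 11.9 CPM in H0 and 1.40, 2.81 and 1.89 CPM in C, was just inside the threshold (3.40 ± 0.90, edgeR, adjusted p = 0.0499), with 2.09 without H0 replicate 2 and no call without H0 replicate 3 (adjusted p = 0.0682).

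The other phosphate-responsive members did not pass the test. miR827, which acts on the ubiquitin ligase NLA, had the most reads of the list in the C libraries, and its levels overlapped, with 61.5, 268 and 77.7 CPM in H0 and 83.5, 85.1 and 60.8 CPM in C. Its fold change was 1.17 ± 0.66 (edgeR, adjusted p = 0.269) with all libraries and −0.0003 without H0 replicate 2. miR2111b-3p, the star of a family that acts on an F-box mRNA, was just outside the threshold (2.97 ± 0.87, edgeR, adjusted p = 0.0609) and was called without that library (1.92, adjusted p = 0.0468). It was singled out after its values were seen. The list then had 5 of 8 members called higher and a median of 1.68, against 16.9% called higher and a median of −0.03 over all sequences tested without that library. Every miR399 call was lost when any 1 C library was left out and H0 replicate 2 kept, at adjusted p between 0.0876 and 0.145 in edgeR, with fold changes of 2.37 to 5.05. When both were left out, the 4 had adjusted p of 0.00265 to 0.0901, and miR399d was again not called without C replicate 1 or 3. All 4 also missed the threshold in the one-way F test on CPM (unadjusted p of 0.164 to 0.183), and miR399d did so with library weights (limma, adjusted p = 0.0593). Summed over the list, H0 libraries held 205, 973 and 280 CPM and C libraries held 144, 153 and 111 CPM.

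Both miR395 sequences were higher in H0, and 1 passed the test. miR395a,d,e was at 6.64, 11 and 7.61 CPM in H0 and at 1.40, 1.53 and 4.24 CPM in C, a difference of 2.06 ± 0.53 (edgeR, adjusted p = 0.0486). This rests on 31 to 54 reads per H0 library and 6 to 18 per C library, with C replicate 3 the highest of its group. Without H0 replicate 2 the difference was 1.68 (adjusted p = 0.0382), and leaving out any of the other 5 libraries ended the call, at adjusted p of up to 0.145. The more abundant miR395b,c,f, with 12, 41.7 and 19.5 CPM in H0 and 3.72, 3.07 and 11.8 CPM in C, did not pass (2.27 ± 0.75, edgeR, adjusted p = 0.077).

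Among the copper-responsive miRNAs, the laccase regulators were lower in H0. miR397b was at 6.21, 19.9 and 6.71 CPM in H0 and at 87.2, 77.4 and 117 CPM in C, a difference of −2.78 ± 0.60 (edgeR, adjusted p = 0.034). miR857 was at 12.4, 24.4 and 10.3 CPM in H0 and at 93.0, 152 and 108 CPM in C (−2.59 ± 0.46, adjusted p = 0.0166). miR397a, at 7.93, 17.3 and 11 CPM in H0 and 55.1, 78.2 and 96.9 CPM in C, differed by −2.38 ± 0.43 (edgeR, adjusted p = 0.0166). For all 3 the highest H0 library was replicate 2, and it lay far below the lowest C library. Without it the differences were −3.73, −3.22 and −2.89 for miR397b, miR857 and miR397a. miR397a and miR857 stayed called without C replicate 1 and had an adjusted p of 0.0531 or 0.0517 without C replicate 2 or 3. miR397b was not called without any 1 of the libraries other than H0 replicate 2 (adjusted p of up to 0.0995).

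The other copper-responsive members did not move as a group. miR398b-5p,c-5p, the strand with more reads of hairpins whose 3p strand acts on the superoxide dismutase mRNAs CSD1 and CSD2, was higher in H0, with 42.4, 59.5 and 46.1 CPM against 14.0, 22.0 and 20.7 CPM in C (1.65 ± 0.30, edgeR, adjusted p = 0.0166; 1.37 without H0 replicate 2). Without C replicate 1, 2 or 3 its adjusted p was 0.0715, 0.0752 and 0.0517. Its partner strand miR398b-3p,c-3p had 10 to 22 reads per library and a fold change of 0.26 (adjusted p = 0.713). miR408-5p, by far the most abundant of the list, was at 12105, 15386 and 6441 CPM in H0 and at 18892, 22939 and 18962 CPM in C. The groups did not overlap, and its fold change was −0.55 ± 0.38 (edgeR, adjusted p = 0.343). Without H0 replicate 2 it was −0.98 (adjusted p = 0.0329), and miR408-3p, the strand that acts on plantacyanin and laccase mRNAs, was then also lower (−2.16, adjusted p = 0.0155). In all, 3 of the 8 tested members were lower and 1 higher with all libraries, and 5 lower and 1 higher without H0 replicate 2. Of all tested sequences 6.75% were called lower and 9.82% higher with all libraries, and 12% and 16.9% without H0 replicate 2. The median was −1.06 with all libraries and −1.57 without that library.

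The miR169 family, whose 5p strands act on NF-YA mRNAs, had 4 of 6 tested members lower in H0, against 6.75% of all tested sequences. miR169b-5p,c was the steadiest call of the comparison, at 8.36, 8.74 and 9.40 CPM in H0 and 43.5, 59.0 and 51.6 CPM in C (−2.29 ± 0.20, edgeR, adjusted p = 0.00257). It was called in all 21 alternative fits, with adjusted p of up to 0.0276 and fold changes between −2.57 and −2.21. Its hairpin partner miR169b-3p was at 9.0, 11.2 and 9.18 CPM in H0 and at 44.4, 117 and 42.2 CPM in C (−2.51 ± 0.45, adjusted p = 0.0166), and its adjusted p was 0.0517 without C replicate 3. The 5p sequence is shared with MIR169c, so that its change cannot be given to one hairpin. miR169h,i,j,k,l,m,n, made from 7 loci, was at 12.4, 15.6 and 18.6 CPM in H0 and 47.9, 45.5 and 29.2 CPM in C (−1.15 ± 0.28, edgeR, adjusted p = 0.0415). miR169a-5p, with 35.3, 25 and 39.6 CPM in H0 and 75.8, 65.7 and 61.5 CPM in C, differed by −0.81 ± 0.20 (edgeR, adjusted p = 0.0415). Those last calls were lost without any 1 of the libraries other than H0 replicate 2, at adjusted p of up to 0.114. The family's most abundant sequence over the 6 libraries, miR169d,e,f-5p,g-5p, overlapped between groups, with 52.5, 33.7 and 79.7 CPM in H0 and 70.9, 80.0 and 65.0 CPM in C (−0.18 ± 0.26, adjusted p = 0.723).

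**Figure D2:**
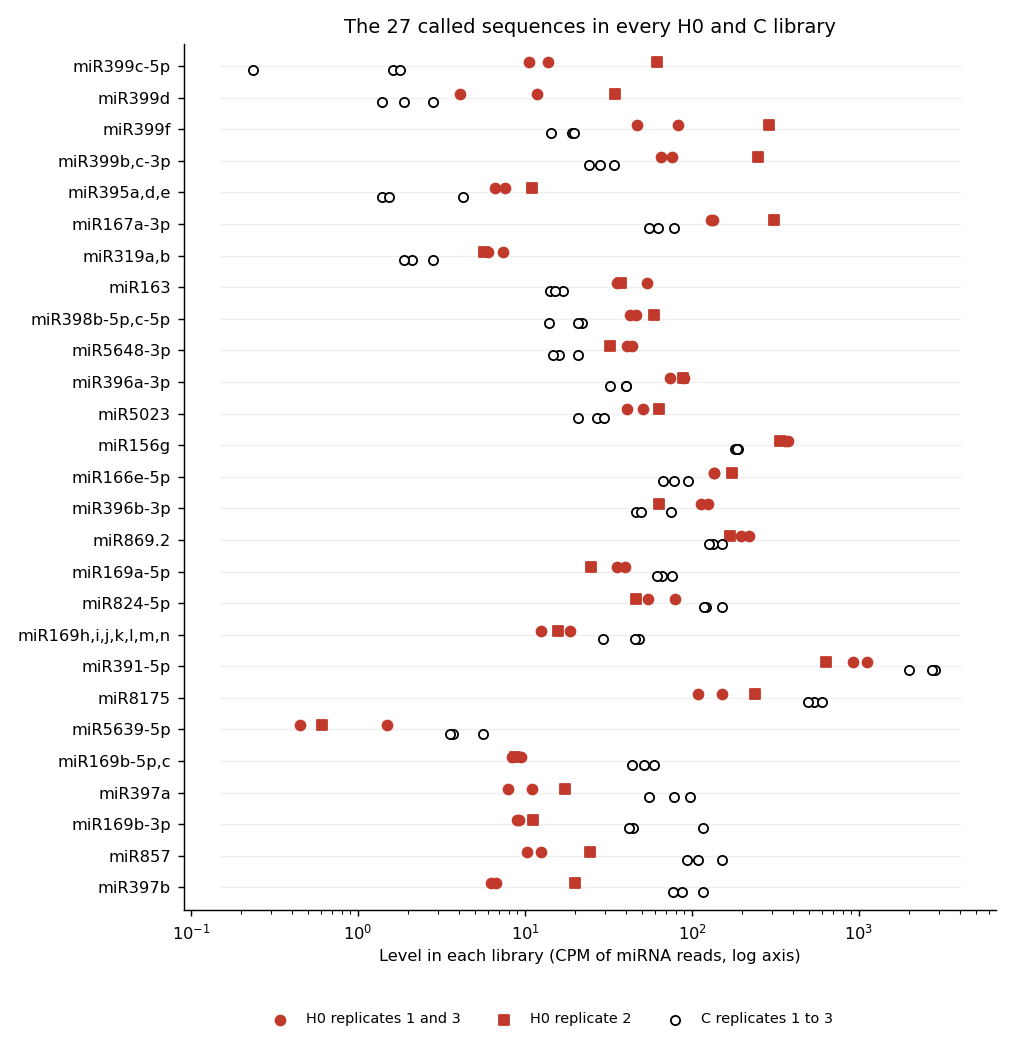
Levels (CPM, log axis) of the 27 called sequences in every library, ordered by fold change, with H0 in red (replicate 2 as a square) above C in open circles. H0 and C overlap only for miR396b-3p, and H0 replicate 2 is the highest H0 library of all 4 miR399 strands and of miR397a, miR397b and miR857.

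Further sequences higher in H0 included miR163, which acts on methyltransferase mRNAs. It was at 35.6, 37.6 and 53.9 CPM in H0 and 14.2, 16.9 and 15.1 CPM in C (1.69 ± 0.21, edgeR, adjusted p = 0.00905), and H0 replicate 2 did not stand apart. miR156g (cGACAGAAgagagtgagcac, chr2:8412589-8412608), which shares bases 2 to 8 with the main miR156 sequence, was at 377, 335 and 359 CPM in H0 and at 180, 188 and 185 CPM in C (1.19 ± 0.16, adjusted p = 0.00905). miR156g differs from the main miR156 sequence only in its first base, and that sequence averaged 316952 CPM in H0 and 254803 CPM in C. Reads of it may therefore enter the miR156g counts through the trimming used in counting, which was not tested. miR5648-3p was at 43.5, 32.1 and 41.0 CPM in H0 and at 16.0, 20.7 and 14.6 CPM in C (1.41 ± 0.19, edgeR, adjusted p = 0.00905). These 3 had nearly the same fold change without H0 replicate 2, at 1.67, 1.13 and 1.44 for miR163, miR156g and miR5648-3p. Their adjusted p lay between 0.0517 and 0.055 when any 1 C library was left out.

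Star strands of developmental families were also among the higher calls. miR167a-3p, the star of a hairpin whose guide acts on the auxin response factors ARF6 and ARF8, was at 133, 311 and 130 CPM in H0 and 62.8, 55.2 and 77.8 CPM in C (1.85 ± 0.49, edgeR, adjusted p = 0.0496; 1.14 without H0 replicate 2). The stars of the miR396 hairpins, whose guides act on growth-regulating factors, were higher too. miR396a-3p was at 89.3, 88.6 and 73.9 CPM in H0 and 40, 32.5 and 40.3 CPM in C (1.40 ± 0.24, edgeR, adjusted p = 0.0166), and miR396b-3p at 113, 63.8 and 125 CPM in H0 and 46.3, 74.4 and 49.5 CPM in C (1.04 ± 0.26, adjusted p = 0.0442). miR396b-3p was the only call with overlapping groups and the one lost in most of the alternatives, 10 of 21. The star miR166e-5p was at 136, 174 and 135 CPM in H0 and 78.1, 94.1 and 67.2 CPM in C (1.16 ± 0.26, edgeR, adjusted p = 0.0344). miR319a,b, which acts on TCP transcription factors, was at 5.69 to 7.39 CPM in H0 and 1.89 to 2.81 CPM in C (1.71 ± 0.26, adjusted p = 0.0139). Its levels in C rest on few reads, and its call was lost in the joint fit of 39 libraries. The remaining calls were miR5023 (1.27 ± 0.29) and miR869.2 (0.74 ± 0.16), both without overlap between the groups. All 7 lost their call when any 1 C library was left out, at adjusted p of up to 0.175. Those of miR396b-3p and miR869.2 were also lost without H0 replicate 1 or 3, and that of miR5023 without H0 replicate 3. All 7 kept it when H0 replicate 2 was left out, alone or with 1 C library.

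Beyond the copper and miR169 families, 4 sequences were lower in H0. miR391-5p, a relative of miR390, was the most abundant call, at 1113, 633 and 920 CPM in H0 and 1989, 2842 and 2755 CPM in C (−1.30 ± 0.21, edgeR, adjusted p = 0.0166; −1.17 without H0 replicate 2). It was not called without C replicate 2 or 3 (adjusted p of 0.0532 and 0.0579). miR824-5p, which acts on the mRNA of the MADS-box factor AGL16, was at 54.6, 45.9 and 79.0 CPM in H0 and 150, 122 and 118 CPM in C (−0.91 ± 0.23, edgeR, adjusted p = 0.0446). miR8175 was at 150, 238 and 108 CPM in H0 and 539, 600 and 494 CPM in C (−1.43 ± 0.38), just inside the threshold at an adjusted p of 0.04998. miR5639-5p was near the detection limit, with 0.448 to 1.5 CPM in H0 and 3.54 to 5.62 CPM in C (−2.06 ± 0.48, adjusted p = 0.0399). The last 3 were not called when any 1 C library or H0 replicate 3 was left out, nor miR824-5p and miR8175 without H0 replicate 1, at adjusted p of up to 0.121.

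None of the 8 most abundant sequences passed the test, although several did not overlap between the groups. The main miR156 sequence was at 320382, 330421 and 300052 CPM in H0 and at 261798, 240220 and 262392 CPM in C (0.56 ± 0.17, edgeR, adjusted p = 0.0706). miR157a-5p,b-5p,c-5p was at 335275, 221413 and 355492 CPM in H0 and 338598, 364837 and 341733 CPM in C, and its fold change was 0.01 ± 0.14. Its level in H0 replicate 2 was well below that in the 5 other libraries. miR168a-5p,b-5p, which acts on AGO1, was at 29276, 40217 and 31658 CPM in H0 and at 23004, 26657 and 24061 CPM in C (0.72 ± 0.23, edgeR, adjusted p = 0.073). Without H0 replicate 2, the main miR156 sequence (0.42, adjusted p = 0.0266), miR168a-5p,b-5p (0.45, adjusted p = 0.00957) and miR408-5p were called. The main miR166 sequence, which acts on HD-ZIP III factors, had a fold change of 0.64 ± 0.27 (adjusted p = 0.152), and miR158a-3p, miR161.1 and miR167a-5p,b had fold changes between −0.17 and 0.10.

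Counted by list, the other families held few calls, to be read against 9.82% higher and 6.75% lower of all tested sequences with all libraries, and 16.9% and 12% without H0 replicate 2. Of the 12 SPL-regulating sequences 1 was called higher, with a median fold change of 0.26, which was 0.01 under scaling by total miRNA reads. The 5 HD-ZIP III sequences all had fold changes above 0 (median 0.64), with 1 called with all libraries and 4 without H0 replicate 2. For the MYB and TCP regulators (miR159, miR319) these counts were 1 and 3 of 3, with a median of 1.00. The 4 tested miR172 sequences, which act on AP2-like factors, all had fold changes below 0 (median −0.43), with 0 called by edgeR (1 at an unadjusted p under 0.05) and 1, miR172a,b-3p, called without H0 replicate 2 (−0.79, adjusted p = 0.00367). The median of the miRNA machinery list (miR162, miR168, miR403) was 0.28 and changed sign to −0.01 under scaling by total miRNA reads and to −0.07 without H0 replicate 2. Among 13 tested auxin regulators 1 was called higher, and their median of 0.04 was −0.22 under scaling by total miRNA reads. Of the regulators of HAM factors (miR170, miR171), NAC factors (miR164) and PPR and NB-LRR genes (miR161, miR400, miR472, miR825), 0 of 5, 2 and 6 were called by edgeR, and 1, 0 and 2 of them had an unadjusted p under 0.05. Of the 38 tested miRNAs with the highest family numbers, 2 were called higher and 2 lower.

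**Figure D3:**
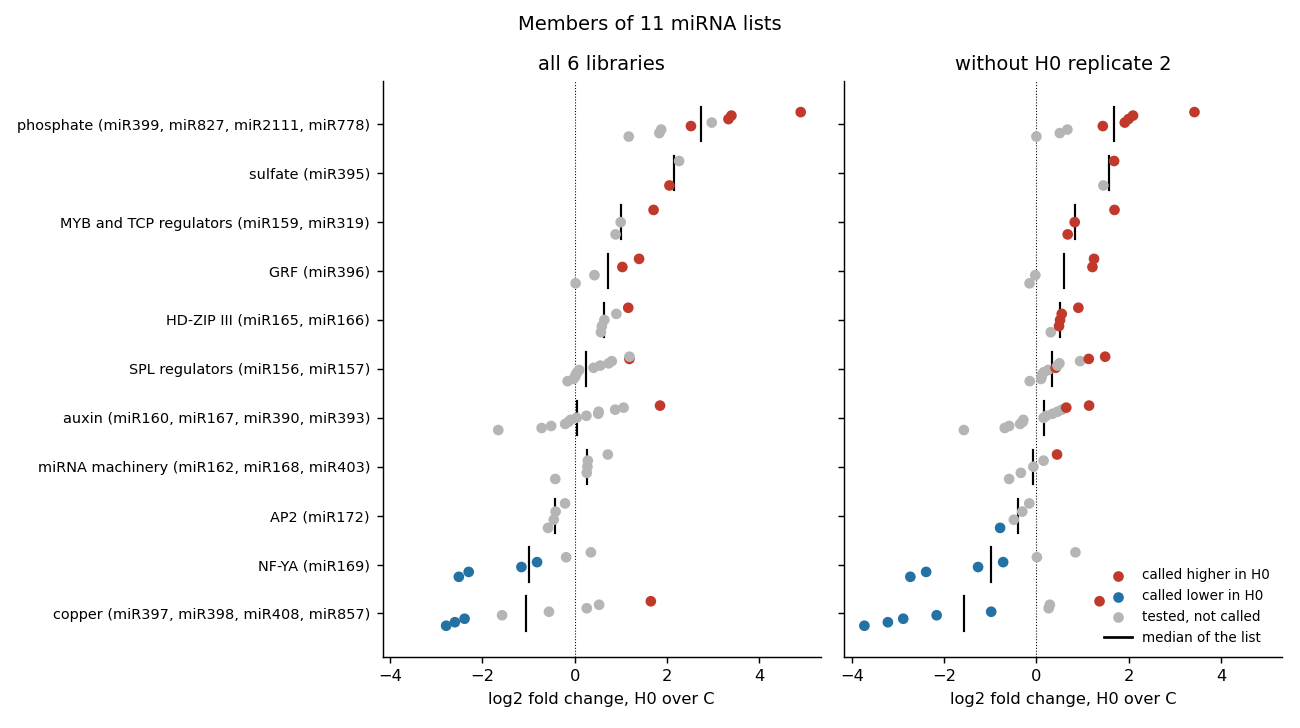
Each point is a tested member of 1 of 11 lists, placed at its log2 fold change of H0 over C, with all libraries (left) and without H0 replicate 2 (right). Black bars mark list medians. The phosphate median is 2.75 and 1.68 and the copper median −1.06 and −1.57 in the 2 panels.

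The rule used no sequence property, and the called sequences shared few. By bases 2 to 8 the 27 fell into 22 groups, of which 3 held several calls: GCCAAAG (miR399b,c-3p, miR399d and miR399f, 3 higher of 4 tested), AGCCAAG (3 miR169 sequences, all lower) and CATTGAG (miR397a and miR397b, both lower). No such group held calls of both directions. A 5′ terminal T, the base that AGO1 prefers as U, was the first base in 6 of the 16 higher sequences, 7 of the 11 lower ones and 96 of the 163 tested. G was the first base in 5 of the 16 higher sequences and 20 of the 163 tested. Stars by read number made up 5 of the 16 higher, 1 of the 11 lower and 36 of the 163 tested sequences. In 40 hairpins both strands were tested. Sequences of both strands were called in 2 of them, MIR169b and MIR399c, with the same sign. In each of them, however, 1 of the strand sequences is shared with another locus. In 7 hairpins 1 strand alone was called.

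The same 2 seedling sets could be set against each other in libraries that do not enter the comparison above. The 6 heat-treated libraries (H0.5, H6) were compared with the 12 of Cu-, Cu+, Cd+ and S-. NaCl+ libraries, which share the C controls, were left out because they held far fewer miRNA reads, 1018693 to 1733990 each. Treatment and set cannot be told apart in that contrast. edgeR called 81 of 181 sequences (44.8%), 42 higher and 39 lower in the heat-treated libraries, and 26 higher and 74 lower under scaling by total miRNA reads. Of the 27 sequences called between H0 and C, 22 had the same sign there (81.5%, against 69.9% of all 163), and 19 were called in the same direction, 12 of the 16 higher (23.2% of all tested were called higher) and 7 of the 11 lower (21.5% called lower). The 2 sets of treated libraries did not overlap in CPM for 7 of the 11 lower sequences, against 14.1% of all 163, and for 4 of the 16 higher ones, against 4.91%. In NaCl+, miR169b-3p (9.80 to 13.9 CPM), miR169b-5p,c (1.73 to 2.95 CPM) and miR399b,c-3p (19.8 to 55.0 CPM) were not separated from the heat-treated libraries in that direction. The other sequences counted here were. With the NaCl+ libraries added, edgeR called 52 higher and 39 lower. Leaving out 1 library at a time gave 42 to 51 higher and 33 to 43 lower calls, and leaving out replicate 2 of H0.5 and of H6 together gave 46 and 33.

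Differences of the mineral-responsive families were also present in the treated libraries, but not all sequences separated the 2 sets. miR397b was at 4.36 to 11.4 CPM in the 6 heat-treated libraries and at 44.5 to 79.6 CPM in the 12 others (−2.48, edgeR, adjusted p = 7.91e-08). miR857 was at 5.66 to 16.4 CPM and at 75.2 to 133 CPM in these libraries (−2.74, adjusted p = 4.34e-08). miR399b,c-3p was at a median of 110.0 CPM in the heat-treated libraries, the lowest of which had 43.7 CPM, and at 30.4 to 36.9 CPM in the others (2.00, edgeR, adjusted p = 9.55e-07). All 9 phosphate-responsive sequences tested were called higher, against 23.2% of all tested sequences. Of these, miR827 was at 155 and 218 CPM in replicate 2 of H0.5 and H6, but at 53.5 to 71.2 CPM in the other heat-treated libraries. In C it was at 60.8 to 85.1 CPM. The phosphate-responsive calls without replicate 2 of H0.5 and H6 are not given here. The 2 miR395 sequences were called higher as well, but overlapped between heat-treated and sulfur-deprived (S-) seedlings. miR395a,d,e was at 5.29 to 15.9 CPM in the heat-treated libraries and at 4.51 to 5.78 CPM in S-. miR395b,c,f was at 6.31 to 43.6 CPM and at 2.26 to 13.4 CPM in these libraries. miR399c-5p, miR399d, miR399f and miR398b-5p,c-5p overlapped between heat-treated and nutrient-treated libraries. In H6, miR399c-5p was at 1.49 to 2.38 CPM, against 0.236 to 1.79 CPM in C. miR398b-5p,c-5p was at 2.78 to 34.4 CPM in H6 and overlapped C, at 14.0 to 22.0 CPM. In H0.5 all libraries lay above C for both sequences. H6 or H0.5 against C was not tested here. miR169b-5p,c (−1.46) and miR169b-3p (−1.70) were lower in the heat-treated libraries, while miR169a-5p and miR169h,i,j,k,l,m,n had fold changes of 0.04 and 0.21 and did not pass.

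**Figure D4:**
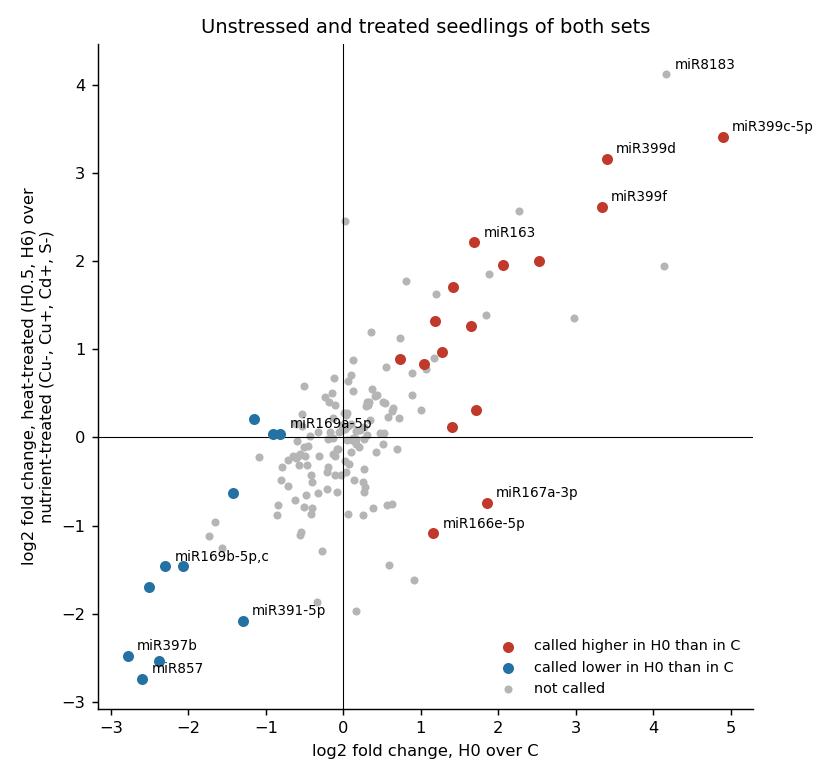
Log2 fold change of H0 over C against that of heat-treated over nutrient-treated seedlings for the 163 sequences, with those called between H0 and C in colour. The miR399 strands lie at upper right and miR397b and miR857 at lower left, while miR167a-3p and miR166e-5p lie below the horizontal line at −0.74 and −1.09.

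Of the other 8 called sequences, 6 did not pass in the treated libraries and 2 star strands were called in the opposite direction. Those that did not pass included miR169a-5p, miR169h,i,j,k,l,m,n and miR824-5p. miR8175 overlapped, at 81.1 to 188 CPM in heat-treated and 106 to 584 CPM in nutrient-treated libraries, with means of 158 CPM in Cu- and 544 CPM in C. miR319a,b averaged 5.66 CPM in heat-treated and 5.92 CPM in nutrient-treated libraries. miR167a-3p and miR166e-5p, higher in H0 than in C, were lower in the heat-treated than in the nutrient-treated libraries, by −0.74 (edgeR, adjusted p = 0.00857) and −1.09 (adjusted p = 0.000957). miR167a-3p averaged 115 ± 58.2 CPM in H0.5 and 11.5 ± 5.03 CPM in H6 (SD, n = 3 each), and miR166e-5p 65.6 ± 12.6 and 17.7 ± 12.2 CPM. The difference between the 2 contrasts was not tested. Over the 9 seedling groups, miR397b averaged 8.10 to 10.9 CPM in the 3 groups of the heat experiment and 56.2 to 127 CPM in the 6 other groups, and miR857 averaged 11.6 to 15.7 CPM and 84.9 to 119 CPM. Copper-deficient seedlings (Cu-) averaged 56.2 CPM of miR397b and 60.8 CPM of miR397a, against 93.9 and 76.7 CPM in C. For miR408-5p the order was the other way, with 26561 CPM in Cu- and 20265 CPM in C. Cu- against C was not tested here. The NaCl+ group had the highest mean of miR397b and the lowest of miR169b-5p,c (2.54 ± 0.699 CPM), below the 8.83 to 13.2 CPM of the heat experiment. In the 4 groups of rosette leaves from the drought experiment, miR397b averaged 12.2 to 18.6 CPM and miR857 14.7 to 22.0 CPM.

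**Figure D5:**
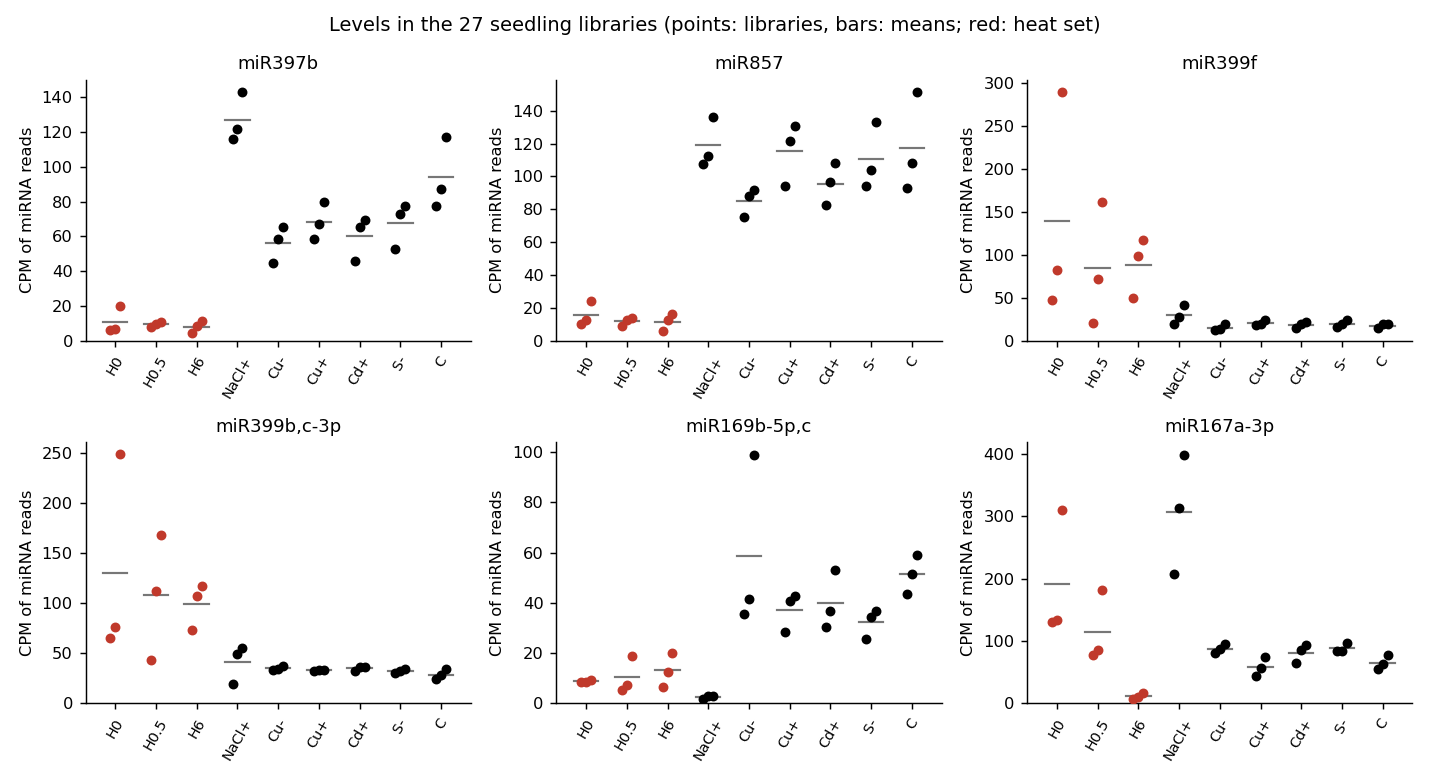
Levels (CPM) of 6 sequences in the 27 seedling libraries, with the 3 groups of the heat experiment in red at left and C at far right. Points are libraries and bars are group means (n = 3). miR397b and miR857 are low in all 9 red libraries, and H0 replicate 2 is the highest point of miR399f at 290 CPM.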

How the data were processed

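Small RNA of 15-day-old seedlings was sequenced, and for the deposited counts the authors dropped sequences under 17 nt and matched the rest to miRBase 21 mature miRNAs, with trimming at both ends for unmatched reads. The authors mapped the reads to TAIR10 with Bowtie 1.0.0 and deposited the percent mapped. The authors' RNA integrity score, 28S to 18S ratio and absorbance ratios were used as deposited. The deposited p-values, fold changes and mean CPM of the stress comparisons were not used. The control columns repeated in several tables were identical and were used once. Names with 1 sequence share 1 count.

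Counts of H0 and C were compared with edgeR 4.0.16 (R 4.3.3), using filterByExpr (minimum count 10), TMM, quasi-likelihood tests and Benjamini-Hochberg adjustment over all sequences tested. The procedure was also run on simulated data. All simulated libraries had the same spread, unlike H0 and C, so that run cannot show how the procedure behaves under unequal spread. Alternatives were other scalings and filters, joint fits, leaving libraries out, DESeq2 1.42.0, limma 3.58.1 (voom with library weights, added after seeing the data) and, as in the study, a one-way F test of CPM without adjustment. The fits without 2 libraries, and those that left libraries out of the treated comparison, were also added after seeing the data. Library measures were compared by exact permutation tests. Depth was 3912553 to 4920920 miRNA reads per library, so sequences of a few CPM rest on few reads. Sequences are those of the deposited tables, and positions are exact matches in the RefSeq TAIR10.1 genome. Named sequences were, of the called ones without overlap, the 12 largest in each direction, the 8 most abundant, and per list the called and the most abundant members. The members and lists were chosen with earlier results of these data known. The labels call the replicates biological without saying how they were grown, so p-values measure the spread between these samples only.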

Additional observations from a re-analysis of the deposited data

How the results depend on the processing

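All 27 calls kept their direction in the alternatives run on them. Against 16 higher and 11 lower calls, there were 27 and 21 in a joint fit of 27 seedling libraries, 41 and 16 in one of 39 libraries, 30 and 21 with DESeq2, 25 and 19 with library weights (limma), 14 and 19 under total miRNA scaling, 21 and 17 without the 2 most abundant sequences, 17 and 17 with no filter, and 18 and 34 with the one-way F test on CPM (unadjusted p), which called 20 of the 27 and none of the 4 miR399 sequences. With 1 library left out, 0 to 28 were higher and 1 to 20 lower. Without H0 replicate 2 and C replicate 1, 2 or 3, there were 17 and 19, 18 and 23, and 22 and 18. The replicate block gave 9 higher and 8 lower, 16 of them among the 27 (miR399b,c-3p and miR399f were among the 11 lost), but the deviations of same-numbered H0 and C libraries correlated at only −0.06, −0.08 and 0.07, so the samples share only a number. miR167a-5p,b, not called at 0.04 and at −0.30 to 0.20 with 1 library left out, was called at −0.49 without H0 replicate 2 and C replicate 2. Heat-treated against nutrient-treated seedlings gave 42 higher and 39 lower, and 26 and 74 under total miRNA scaling. The cause of these shifts was not tested.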
